A study of Homo sapiens with 6 samples.

Results

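Eukaryotic initiation factor 2 (eIF2) and its exchange factor eIF2B are encoded by 8 genes, and their transcripts are described here in cells labelled ABCF1 and NC-1. The genes were chosen by symbol, as the 3 subunits of eIF2 (EIF2S1, EIF2S2 and EIF2S3) and the 5 subunits of eIF2B (EIF2B1 to EIF2B5), out of 60612 genes in the deposited tables. All 8 were found, and all 8 passed the filter on low counts that left 16545 genes for the test. The choice was made by function, since the ABCF1 protein binds eIF2, and used none of the measured values, although earlier results of these data were known.

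eIF2 is a GTP-binding protein of 3 subunits that carries the initiator methionyl-tRNA to the small ribosomal subunit. When the start codon is found its GTP is hydrolysed, and eIF2B exchanges the bound GDP for GTP so that eIF2 can be used again. Stress-activated kinases phosphorylate the alpha subunit of eIF2, which turns it into an inhibitor of eIF2B and starts the integrated stress response. ABCF1 is a ribosome-associated ATP-binding cassette protein known to bind eIF2 and to take part in translation initiation.

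RNA sequencing was done on 6 libraries, 3 labelled ABCF1 and 3 labelled NC-1, all labelled as the HepG2 line, which was established from a human liver tumour. The series title speaks of overexpression of ABCF1, and its design text of stable lines with lysine-to-arginine forms of the protein. The sample labels give only the genotype names ABCF1 and NC-1, so neither the form carried, nor what the control construct was, nor how many clones were used is settled by them. No agent, dose or time is given for either group.

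Total counts were 62323034 to 77394510 per library. The ABCF1 transcript, which checks the labels, was lower in the libraries labelled ABCF1, at 102, 108 and 109.7 CPM (counts scaled to a common TMM-adjusted library size) against 162, 159 and 155 CPM in NC-1, so its direction goes against overexpression, and ABCF1 and NC-1 are used below only as the names on the libraries. Whether labels were exchanged, or a transgene went uncounted, was not tested, and if labels were exchanged every sign below would turn. Of 14 liver and HepG2 markers 13 stayed below 1 CPM in every library, albumin and alpha-fetoprotein included. HNF4A, a liver transcription factor, was the exception at a mean of 114 CPM against 100.3 CPM. It made up nearly all of the summed level of the list, 103 to 122 CPM in ABCF1 and 92.1 to 107 CPM in NC-1. Of 8 epithelial markers 3 and of 5 mesenchymal markers 2 stayed below 1 CPM in every library. The highest of these lists were KRT8, at 1864 against 1632 CPM, and VIM, at 1756 against 1562 CPM. Whether the HepG2 label is right was not tested. On the first principal component, which took 29.6% of the variance, ABCF1 replicate 3 and NC-1 replicate 2 stood apart from the other 4 libraries, and these 2 are called the set apart below. The labels do not state whether replicates were grown as separate cultures, and each p-value below rests on variation among replicates that could be purely technical.

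The alpha subunit gene carries the site on which regulation of eIF2 turns, and its coding sequence around that site is shown with the serine codon in capitals. It is serine 51 when the start methionine is not counted and codon 52 when it is, at chr14:67364921-67364923 on the plus strand, in exon 2 (GRCh38, GENCODE 29).
EIF2S1 codons 43 to 61: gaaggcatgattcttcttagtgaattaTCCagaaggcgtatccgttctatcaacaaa
These counts measure the amount of the transcript and hold no information on phosphorylation of the protein.

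The gamma subunit gene on chromosome X has a near-identical copy on chromosome 12, EIF2S3B, and how reads divide between them depends on bases such as those in the 60-base coding stretch with the most differences, shown in capitals.
EIF2S3 coding bases 298 to 357: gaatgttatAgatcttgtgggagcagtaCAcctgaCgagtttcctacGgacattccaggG
EIF2S3B coding bases 298 to 357: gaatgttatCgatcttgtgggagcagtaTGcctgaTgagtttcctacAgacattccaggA
Over their 1419 coding bases the copies differed at 25 positions, an identity of 98.2%, and the longest identical run was 205 bases. EIF2S3B took 7 to 23 counts per library against 49206 to 62955 for EIF2S3, at most 0.0467% of it, so the copy held a small share of the counts as the authors assigned them. Among the EIF2S2 pseudogenes EIF2S2P4 took the most, 12 to 64 counts against 7918 to 12135 for EIF2S2.

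Compared per transcript length in the authors' RPKM (reads scaled by transcript length and library size), the gamma subunit transcript stood far above the rest. EIF2S3 was at 220.4 ± 23.9 RPKM (SD, n = 6) and EIF2S2 at 53.5 ± 9.06 RPKM over all libraries, and their ranges did not overlap. EIF2S1 and EIF2B1 shared the next level, both at a mean of 22.3 RPKM. Each was the higher of the pair in 3 of 6 libraries, and this split followed the groups, since EIF2S1 was 0.975, 0.946 and 0.980 times EIF2B1 in ABCF1 and 1.01, 1.05 and 1.02 times in NC-1. By counts, 13.9% of ordered gene pairs at 10 CPM or more were higher in ABCF1 without overlap. The split of this pair was described after its values were seen. The remaining eIF2B subunits followed, EIF2B5 at 14.4 ± 0.784 RPKM, EIF2B4 at 13.7 ± 1.45 RPKM, EIF2B2 at 10.4 ± 1.10 RPKM and EIF2B3 at 9.44 ± 1.01 RPKM (SD, n = 6). Neighbours in that run overlapped in their ranges, so their order is not separated by the spread between libraries, although EIF2B4 exceeded EIF2B2 within each of the 6 libraries. The transcripts of the eIF2 trimer were thus not at equal levels: EIF2S3 was 8.75 to 10.8 times EIF2S1 in RPKM and EIF2S2 was 2.16 to 2.60 times EIF2S1, with overlapping groups for both ratios.

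**Figure D1:**
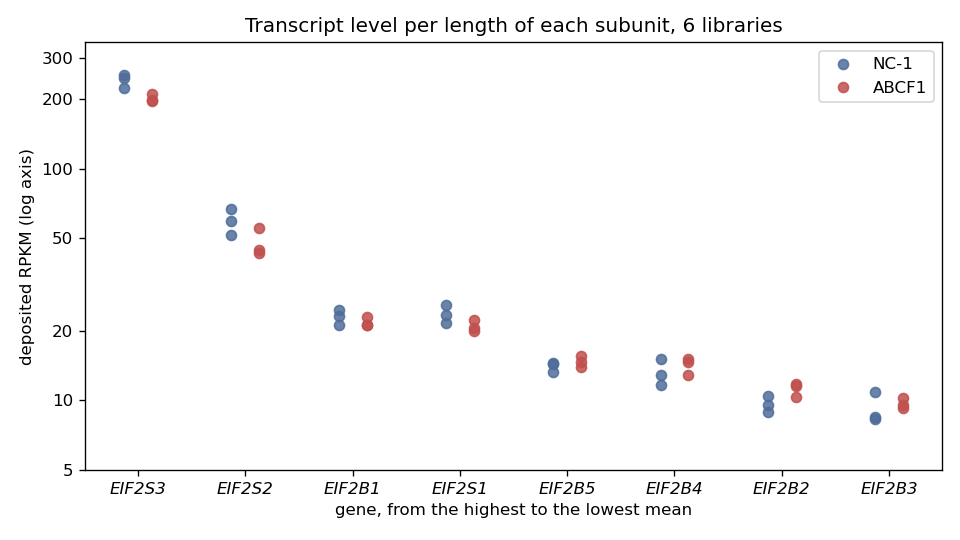
Deposited RPKM of the 8 genes on a log axis, ordered by their mean, with 1 point per library (blue NC-1, red ABCF1). EIF2S3 lay between 196 and 252 RPKM in every library and EIF2B3 between 8.33 and 10.9 RPKM.

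Between the groups, all 3 eIF2 subunit transcripts had lower mean CPM in ABCF1 and all 5 eIF2B subunit transcripts higher ones, but edgeR called none of the 8 at an adjusted p under 0.05. In mean RPKM EIF2B1 was instead lower in ABCF1, at 21.7 against 22.9, while the other members kept their direction. In bulk libraries a smaller share of cells with a transcript and less of it per cell cannot be told apart. No gene of the 16545 was called either, a background of 0.00%. At an unadjusted p under 0.05 there was 1 of 8, EIF2B2, against 14.8% of all tested genes, and limma-voom also called 0 of 8. The DESeq2 Wald test called 0 of 8 as well, where it called 3.78% of all genes, 1.47% as higher and 2.31% as lower. The median log2 fold change (ABCF1 over NC-1) was -0.16 over the eIF2 subunits and 0.18 over the eIF2B subunits, against 0.00 over all tested genes, of which 50.1% were above 0. The groups did not overlap in CPM for 2 genes higher in ABCF1 (EIF2B2 and EIF2B5) and 1 lower (EIF2S3), where 10.7% and 12.4% of all tested genes were so separated.

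EIF2S1 encodes the alpha subunit that holds the phosphorylated serine (ENSG00000134001, chr14:67360151-67386516, plus strand). Its transcript was at 98.2, 96.5 and 113 CPM in ABCF1 and at 103, 120.2 and 98.9 CPM in NC-1. The highest library of each group belonged to the set apart, and the groups overlapped. The log2 fold change was -0.07 (SE 0.11, edgeR adjusted p = 0.81), and it was 0.02 without NC-1 replicate 2, so no direction can be given for this gene. Its exons share 269 bases with those of ATP6V1D on the opposite strand (2877 to 4565 counts per library), and whether counting used strand is not given in the sources used here.

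EIF2S2 encodes the beta subunit, which binds eIF2B and the GTPase-activating factor eIF5 (ENSG00000125977, chr20:34088309-34112243, minus strand). It was at 126, 125 and 168 CPM in ABCF1 and at 157, 186 and 142 CPM in NC-1. Replicates 1 and 2 of ABCF1 were the lowest of the 6 libraries, while ABCF1 replicate 3 was the second highest. The log2 fold change was -0.21 (SE 0.15, edgeR adjusted p = 0.54), and single libraries moved it, to -0.36 without ABCF1 replicate 3 and to -0.10 without NC-1 replicate 2.

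EIF2S3 encodes the gamma subunit, the core of the trimer that binds GTP and the initiator tRNA (ENSG00000130741, chrX:24054946-24078810, plus strand). Its counts were 49206, 52356 and 57483 in ABCF1 and 62955, 57921 and 56232 in NC-1. Scaled, these were 783, 758 and 794 CPM against 879, 909.7 and 817 CPM, and every ABCF1 library was below every NC-1 library. The deposited RPKM showed the same separation, with 209.7, 198 and 196 RPKM against 252, 245 and 222 RPKM. RPKM leaves out the TMM factors, which were 0.9361 to 0.984 in ABCF1 and 1.022 to 1.047 in NC-1. Leaving them out sets ABCF1 lower relative to NC-1 than in CPM, but this is not the only difference between the scales. For EIF2S3 the ratio of RPKM to the share of total counts also varied between libraries. The group means were 778 ± 18.3 CPM and 869 ± 47.1 CPM (SD, n = 3), a fold of 0.896 and a log2 fold change of -0.16 (SE 0.08, edgeR adjusted p = 0.40).

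**Figure D2:**
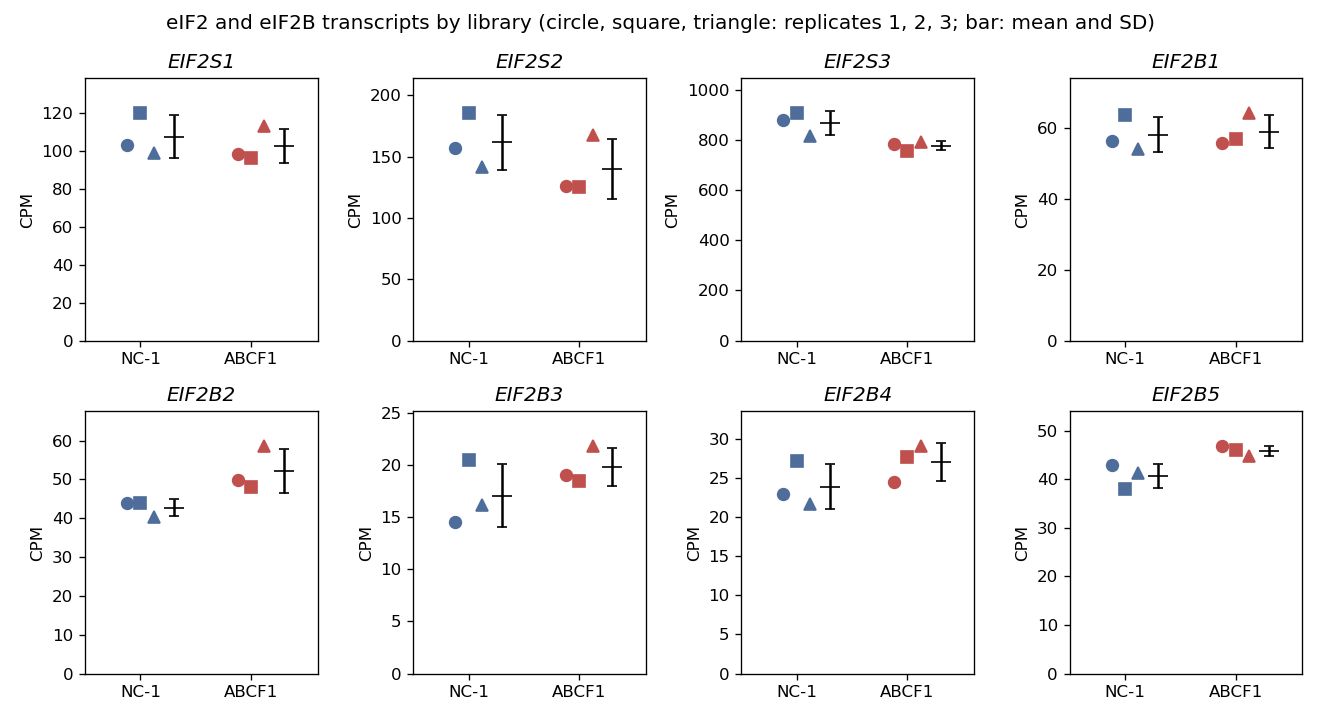
CPM of each gene by library, with circles, squares and triangles for replicates 1, 2 and 3 and a bar for the mean and SD of each group. The 3 ABCF1 libraries lay below the 3 NC-1 libraries for EIF2S3 (758 to 794 against 817 to 909.7 CPM) and above them for EIF2B2 (48.1 to 58.7 against 40.3 to 44.0 CPM) and EIF2B5 (44.8 to 46.9 against 37.9 to 42.9 CPM).

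eIF2B is built from a catalytic pair, gamma and epsilon, and a regulatory trio, alpha, beta and delta, which senses phosphorylated eIF2. In the catalytic pair EIF2B5, the epsilon subunit with the exchange activity (ENSG00000145191, chr3:184135038-184146127, plus strand), was at 46.9, 45.9 and 44.8 CPM in ABCF1 and at 42.9, 37.9 and 41.2 CPM in NC-1. All ABCF1 libraries lay above all NC-1 libraries by a narrow margin, and the log2 fold change was 0.17 (SE 0.09, edgeR adjusted p = 0.40). In the deposited RPKM the groups overlapped, at 13.9 to 15.6 against 13.3 to 14.5.

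EIF2B3, the gamma subunit, with the lowest mean RPKM of the 8 but a range that overlaps that of EIF2B2 (ENSG00000070785, chr1:44850522-44986722, minus strand), was at 19.1, 18.5 and 21.9 CPM in ABCF1 and at 14.6, 20.5 and 16.2 CPM in NC-1. NC-1 replicate 2 lay among the ABCF1 libraries. The log2 fold change was 0.22 (SE 0.15, edgeR adjusted p = 0.52), and it moved to 0.37 without NC-1 replicate 2 and to 0.11 without NC-1 replicate 1.

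In the regulatory trio EIF2B2, the beta subunit (ENSG00000119718, chr14:75002921-75012366, plus strand), had the largest fold change of the 8 genes. Its counts were 3137, 3320 and 4252 in ABCF1 and 3143, 2804 and 2771 in NC-1, which gave 49.9, 48.1 and 58.7 CPM against 43.9, 44.0 and 40.3 CPM. The ABCF1 libraries all lay above the NC-1 libraries. The fold was 1.22 and the log2 fold change 0.29 (SE 0.11), with an unadjusted p of 0.027 and an edgeR adjusted p of 0.29. In the deposited RPKM the groups overlapped, since NC-1 replicate 1 at 10.4 RPKM exceeded ABCF1 replicate 2 at 10.3 RPKM. As shares of total counts, also without the TMM factors, these 2 libraries had the reverse order. EIF2B2 held 3143 of 69097005 counts in NC-1 replicate 1 and 3320 of 70611444 in ABCF1 replicate 2. Why the scales differ was not tested.

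EIF2B4, the delta subunit (ENSG00000115211, chr2:27364352-27370457, minus strand), was at 24.4, 27.6 and 29.1 CPM in ABCF1 and at 22.9, 27.1 and 21.6 CPM in NC-1. The groups overlapped, and the log2 fold change was 0.18 (SE 0.12, edgeR adjusted p = 0.52), which moved to 0.28 without NC-1 replicate 2 and to 0.11 without NC-1 replicate 3. Its exons share 199 bases with the antisense noncoding gene AC074117.1, which took 419 to 518 counts against 1484 to 2111 for EIF2B4.

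EIF2B1, the alpha subunit to which the phosphorylated serine of eIF2 docks (ENSG00000111361, chr12:123620406-123633766, minus strand), was at 55.8, 56.8 and 64.4 CPM in ABCF1 and at 56.5, 63.8 and 54.2 CPM in NC-1. The groups lay over each other, with a log2 fold change of 0.02 (SE 0.11, edgeR adjusted p = 0.95). The sign of this difference was negative with library size only, on both RPKM scales, and without ABCF1 replicate 3 or NC-1 replicate 3. EIF2B1 shares 536 exon bases with DDX55 on the opposite strand (1219 to 1759 counts per library).

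A ratio of 2 genes within a library does not depend on how libraries are scaled to each other, and the members were compared in this way as a description chosen after their values were seen. The log2 ratio of the geometric mean count of the 5 eIF2B genes to that of the 3 eIF2 genes was -2.56, -2.52 and -2.61 in ABCF1 and -2.91, -2.93 and -2.84 in NC-1. Every ABCF1 library lay above every NC-1 library, with means of -2.57 ± 0.04 and -2.89 ± 0.05 (SD, n = 3) and a difference of 0.32. The deposited RPKM of the same libraries gave -2.09, -2.06 and -2.12 against -2.44, -2.43 and -2.37, also a difference of 0.32. This is not a second observation, since scaling cancels in such a ratio.

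Of the 15 pairs of 1 eIF2B and 1 eIF2 gene, all 15 had a higher mean log2 count ratio in ABCF1 and 13 did not overlap between the groups, where 13.9% of all ordered pairs of genes with a mean of 10 CPM or more were so separated in that direction. The pairs share members, so they are not 15 separate observations. The widest difference was that of EIF2B2 over EIF2S2, at 0.50, followed by EIF2B2 over EIF2S3 and EIF2B3 over EIF2S2, both at 0.44, and the narrowest was that of EIF2B1 over EIF2S1, at 0.09. The 2 pairs that overlapped were EIF2B5 over EIF2S1 and EIF2B5 over EIF2S2.

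**Figure D3:**
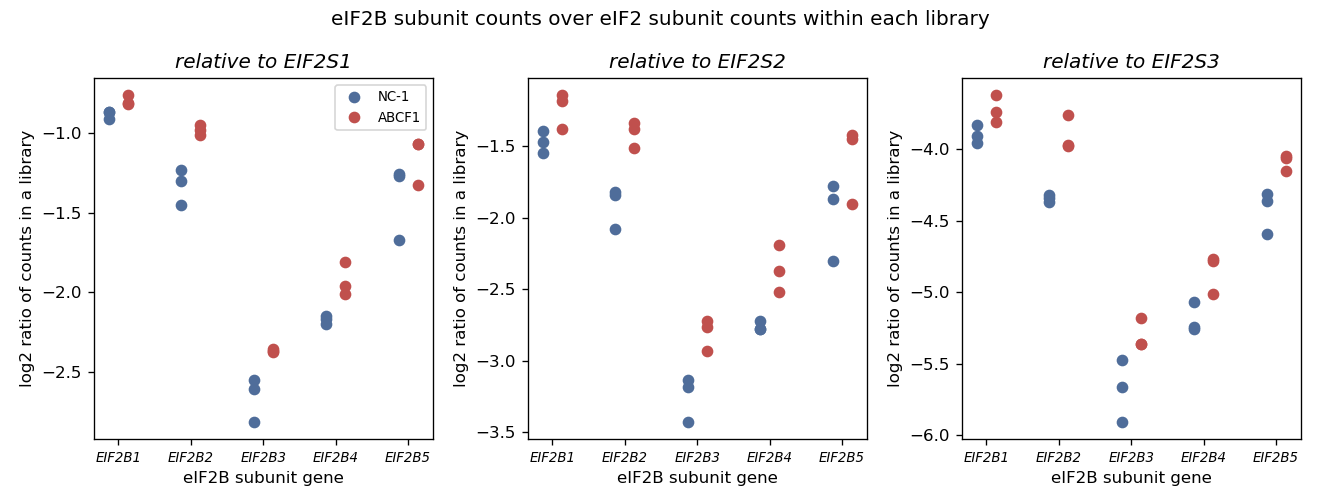
Log2 ratio of the counts of each eIF2B gene to each eIF2 gene within a library, with 1 panel per eIF2 gene and 1 point per library (blue NC-1, red ABCF1; axes differ between panels and do not start at 0). ABCF1 points lay above NC-1 points for 13 of the 15 pairs and overlapped for EIF2B5 over EIF2S1 and over EIF2S2.

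Base composition moved with this difference. Over 16357 tested genes with a transcript model, the log2 fold change had a Spearman rho of 0.49 with the GC content of the longest transcript and -0.28 with its length, across genes that are not independent replicates. The median log2 fold change went from -0.24 to 0.18 from the lowest to the highest of 5 equal bins of genes by GC content. The longest transcripts of the eIF2 genes had 39.2% (EIF2S1), 45.2% (EIF2S2) and 42.7% GC (EIF2S3), and those of the eIF2B genes 45.5% to 51.0%, against a median of 49.2%. For EIF2B3, EIF2B4 and EIF2B5 the longest transcript was not the one with the longest complete coding sequence. Those coding sequences had 45.8%, 54.1% and 52.1% GC, so the trend and offset below may misplace these genes.

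The difference in log2 fold change that the smooth trend with length and GC gives for a gene was -0.23 for EIF2S1, -0.05 for EIF2S2, -0.11 for EIF2S3 and -0.09 to 0.04 for the eIF2B genes. With that trend removed by an offset, the log2 fold change became 0.16 for EIF2S1, -0.16 for EIF2S2, -0.05 for EIF2S3 and 0.38 for EIF2B2. None of these passed in that fit, where EIF2S1 had an SE of 0.11 (edgeR adjusted p = 0.70) and EIF2B2 an SE of 0.12 (edgeR adjusted p = 0.51). The mean log2 fold change of eIF2B less that of eIF2 was then 0.21 in place of 0.32.

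**Figure D4:**
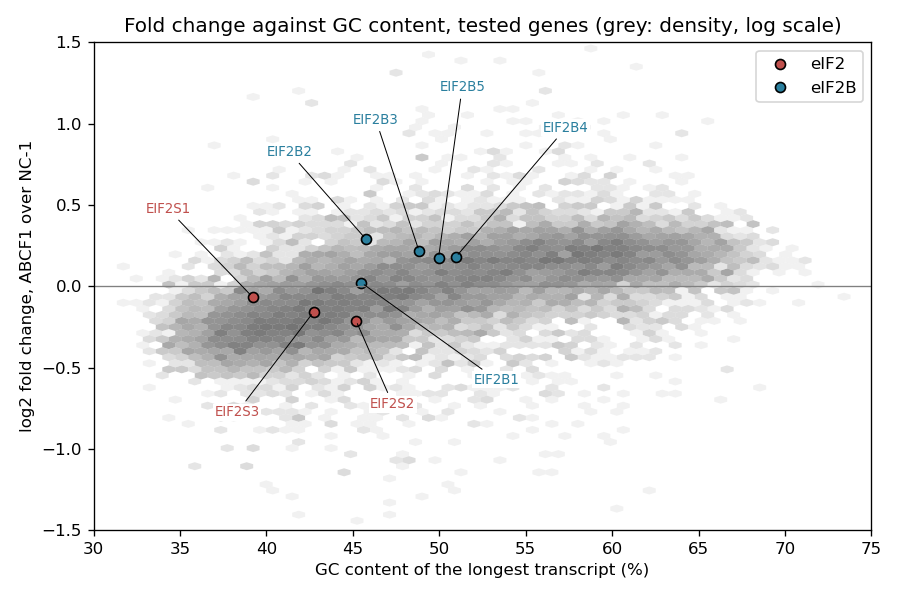
Log2 fold change (ABCF1 over NC-1) against the GC content of the longest transcript, in percent, with grey density for tested genes on a log scale and points for the 8 members; genes beyond the axis limits are not drawn. The eIF2 genes (red) sat at 39.2% to 45.2% GC with log2 fold changes of -0.21 to -0.07, and the eIF2B genes (blue) at 45.5% to 51.0% with 0.02 to 0.29.

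The set apart shifted most members the same way in both groups. Relative to the other 2 libraries of its group, ABCF1 replicate 3 differed by 0.42 in log2 CPM for EIF2S2 and by 0.20 to 0.26 for EIF2S1, EIF2B1, EIF2B2 and EIF2B3. NC-1 replicate 2 differed by 0.32 for EIF2S2, 0.41 for EIF2B3 and 0.28 for EIF2B4. EIF2B5 went the other way in both, by -0.05 and -0.15, and EIF2S3 moved little, by 0.04 and 0.10. Between groups the sign was the same for all 8 genes within the set apart and within the other 4 libraries. The set apart holds only ABCF1 replicate 3 and NC-1 replicate 2, and the share of all genes with equal signs was not computed. EIF2B2 had 0.41 and 0.22 and EIF2S3 -0.20 and -0.14, while EIF2B1 was near 0 with 0.01 and 0.02.

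With membership of that set as a covariate, edgeR called 4 of the 8 genes, where 25.3% of all tested genes were called. Because the set was read from the same counts, these p-values are not those of a planned design. EIF2S2 and EIF2S3 fell by log2 fold changes of -0.22 (SE 0.05, edgeR adjusted p = 0.014) and -0.16 (SE 0.04, edgeR adjusted p = 0.022), in a direction in which 12.5% of genes were called. EIF2B2 and EIF2B5 rose by 0.28 (SE 0.06, edgeR adjusted p = 0.010) and 0.17 (SE 0.06, edgeR adjusted p = 0.045), a direction that held 12.9%. EIF2S1, EIF2B1, EIF2B3 and EIF2B4 did not pass in that fit, with edgeR adjusted p of 0.36, 0.82, 0.080 and 0.11.

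When the fit held both the set and the length and GC offset, 2 of 8 were called, both as higher, against 6.79% of genes, 5.14% as higher and 1.64% as lower. EIF2B2 rose by 0.37 (SE 0.06, edgeR adjusted p = 0.0084) and EIF2S1 by 0.16 (SE 0.04, edgeR adjusted p = 0.047), while EIF2S3 was at -0.05 (SE 0.03, edgeR adjusted p = 0.49). EIF2B2 was the only member called in the same direction in both of these fits. Without the set apart, the other 4 libraries gave 1 call among the 8 genes, EIF2S2 at -0.25 (SE 0.06, edgeR adjusted p = 0.039), against 10.8% of all genes (5.68% higher and 5.10% lower), and EIF2B2 was at 0.22 (edgeR adjusted p = 0.080).

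**Figure D5:**
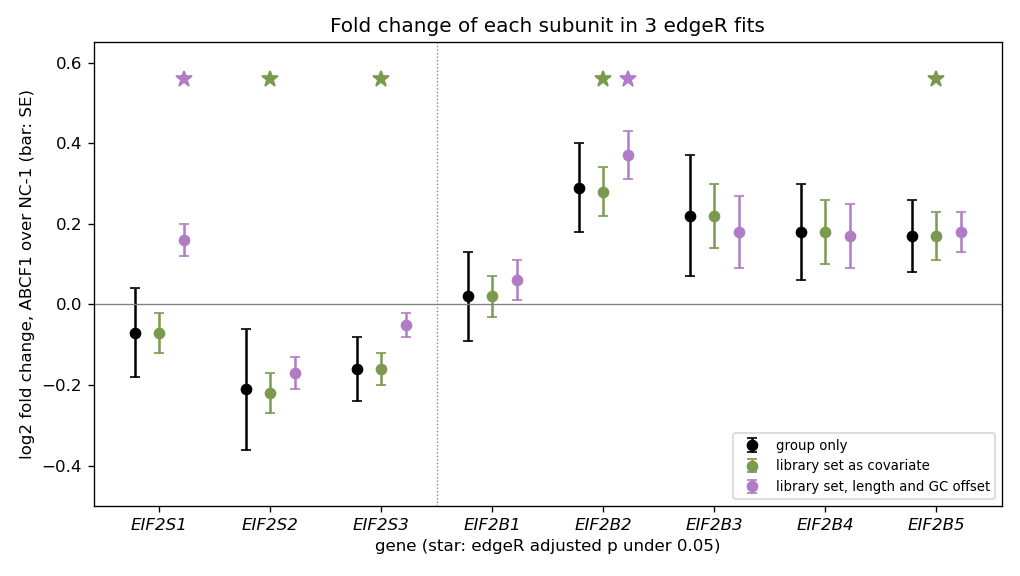
Log2 fold change (ABCF1 over NC-1) with its standard error for each gene in 3 edgeR fits, with the group only (black), with the library set as a covariate (green) and with the set and the length and GC offset (purple), and a star for an adjusted p under 0.05. No black point has a star, and EIF2B2 stayed between 0.28 and 0.37 in the 3 fits while EIF2S1 went from -0.07 to 0.16.

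The members followed each other across the 6 libraries to different degrees, as Pearson correlations of log2 CPM that share library composition and are given as a description. The 3 eIF2 genes correlated with each other at 0.65 to 0.95, the highest for EIF2S1 with EIF2S2. Among the eIF2B genes the 10 correlations ran from -0.34 to 0.84, the highest for EIF2B3 with EIF2B4 and the lowest for EIF2B1 with EIF2B5. EIF2B5 was the member least like the eIF2 genes, at -0.65 with EIF2S1, -0.75 with EIF2S2 and -0.85 with EIF2S3.

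Among 9485 genes with a mean of 10 CPM or more, the gene most like each member over the 6 libraries had a Pearson r of 0.991 to 0.999. These were PCNA, the replication clamp, for EIF2S1, VBP1, a prefoldin subunit, for EIF2S2, GOLGA8A for EIF2S3, TM2D2 for EIF2B1, ABTB1 for EIF2B2, GSS, which makes glutathione, for EIF2B3, PAAF1, a proteasome assembly factor, for EIF2B4 and CAVIN1, a coat protein of caveolae, for EIF2B5. Each was the best of 9485 candidates over 6 libraries, and none of the 8 is on the partner or stress response lists used below.

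The genes that act on eIF2 outside the trimer and eIF2B were taken as a list of 23, chosen with earlier results of these data known. None was called by edgeR, and 11 of 23 had an unadjusted p under 0.05 as lower and 0 as higher, where 8.54% and 6.27% of all tested genes did. The DESeq2 Wald test called 7 of them, all lower, against 2.31% of genes in that direction. The median log2 fold change of the list was -0.20, with 18 of 23 negative, and -0.05 with the library set and the length and GC offset. In that last fit 3 of 23 were called as higher and 3 as lower, against 5.14% and 1.64% of genes. Those higher were EIF1, EIF2D and BZW2, at log2 fold changes of 0.26, 0.32 and 0.19, and those lower ABCF1, EIF1AX and PPP1R15B. ABCF1 itself is also among the 11 and the 7. EIF1, EIF2D, BZW2 and PPP1R15B are named here after their values were seen.

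Nearest to eIF2 in the list stood EIF5, the factor that triggers GTP hydrolysis on eIF2, at 219, 223 and 218 CPM in ABCF1 and 265, 276 and 255 CPM in NC-1. The groups did not overlap, with a log2 fold change of -0.27 (SE 0.08, edgeR adjusted p = 0.26) that became -0.06 with the library set and the offset. BZW1, an eIF5 mimic that binds eIF2, was at 649, 648 and 666 CPM against 794, 891 and 774 CPM, a log2 fold change of -0.33 (SE 0.09, edgeR adjusted p = 0.25) that became -0.05 in the same way. The smooth length and GC trend alone gave -0.21 for EIF5 and -0.27 for BZW1.

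EIF1AX, a scanning factor that works beside eIF2, was at 133, 134 and 156 CPM against 187, 224 and 183 CPM, a log2 fold change of -0.49 (SE 0.11, edgeR adjusted p = 0.25). With the library set and the offset it fell by -0.21 (SE 0.04, edgeR adjusted p = 0.016). CDC123, the chaperone that assembles the eIF2 trimer, was at 61.4, 60.4 and 73.2 CPM against 65.2, 78.3 and 66.5 CPM, with overlapping groups and a log2 fold change of -0.11 (SE 0.12, edgeR adjusted p = 0.71) that was -0.02 without NC-1 replicate 2 and -0.19 without ABCF1 replicate 3. EIF5B, which joins the ribosomal subunits after eIF2 has left, was at 196 ± 48.6 CPM against 218 ± 43.9 CPM (SD, n = 3), also with overlap.

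ABCF1 itself had a log2 fold change of -0.57 (SE 0.08, edgeR adjusted p = 0.25), which was -0.64 with the library set and the offset (edgeR adjusted p = 1.3e-04). ABCE1, the related protein that recycles ribosomes, was at 65.6, 58.6 and 54.9 CPM against 77.5, 84.7 and 82.8 CPM, a log2 fold change of -0.45 (SE 0.10, edgeR adjusted p = 0.25). DNAJC3, a chaperone known to restrain the eIF2 kinases PKR and PERK, was at 54.1, 55.2 and 46.5 CPM against 68.1, 67.2 and 68.7 CPM, a log2 fold change of -0.39 (SE 0.10, edgeR adjusted p = 0.25). With the library set and the offset these became -0.23 for ABCE1 (edgeR adjusted p = 0.070) and -0.15 for DNAJC3 (edgeR adjusted p = 0.11), and the length and GC trend alone gave -0.22 and -0.24. Of the 6 eIF2 kinases and phosphatase subunits in the list 4 had negative log2 fold changes and 2 positive, from -0.41 to 0.21.

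The 10 targets of the integrated stress response that were listed as its readout lay around 0, with a median log2 fold change of 0.05 and a range of -0.10 to 0.21. None was called by edgeR, 2 (TRIB3 and DDIT4) had an unadjusted p under 0.05 as higher and 0 as lower, against 6.27% and 8.54% of all tested genes, and ATF4, the factor whose translation follows eIF2 phosphorylation, was at 226 ± 30.8 CPM against 219.8 ± 17.3 CPM (SD, n = 3). With the library set TRIB3 and DDIT4 were called as higher, a direction in which 12.9% of all tested genes were called, and in the fit that also held the length and GC offset neither was.

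Promoter windows of RefSeq (GRCh38.p14, 250 bases before to 50 after the start) were found for 7 of the 8 genes, all but EIF2S2. To show what the start regions of these genes share, the windows were searched on both strands for CCGGAAGT (ETS factors), GCGCATGC (NRF1) and AAGATGGCG (YY1), which 4.14%, 3.05% and 1.75% of all windows hold, and for TGATGNAA (ATF4 with C/EBP) and TGACGTCA (cAMP response element), which 3.62% and 1.85% hold. Each match is shown in capitals, on the strand of the gene.
EIF2S1 first NRF1 match, chr14:67360297-67360324: ttcagcgcttGCGCATGCgaggaggttc
EIF2S1 second NRF1 match, chr14:67360316-67360343: aggaggttccGCATGCGCggtggagtga
EIF2B5 NRF1 match, chr3:184135241-184135268: cggggaagacGCATGCGCactgctccct
EIF2B5 YY1 match, chr3:184135373-184135401: gtgagagaagAAGATGGCGgcccctgtag
EIF2B1 ETS match, chr12:123633666-123633693: cggaagtgcgCCGGAAGTggggtgcgga
EIF2B2 ETS match, chr14:75002909-75002936: ctcgcccgccCCGGAAGTgcaaactgtg
The second EIF2S1 match and that of EIF2B5 for NRF1 read on the other strand. No member held the ATF4 or cAMP motif, EIF2S3, EIF2B3 and EIF2B4 held none of the 5. The matches describe these windows and were not tested against the expression values.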

How the data were processed

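The members and gene lists were chosen with earlier results of these data known. The authors deposited whole-number counts per gene, without normalization, and a table of RPKM for the same 6 libraries. RNA was extracted with Trizol and made into libraries with a TruSeq kit, per the labels' protocols, which for this kit are not said to keep strand. CASAVA 1.8, Trimmomatic, FastQC, HISAT2, StringTie and edgeR and the GRCh38 build are named, per the submitters' processing notes, with no role for each; the annotation release is not given in the sources used here.

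The main test on the counts was the two-sided quasi-likelihood test of edgeR 4.0.16 (R 4.3.3), after filterByExpr and TMM scaling (Benjamini-Hochberg over 16545 genes, called at an adjusted p under 0.05). SE is the size of the log2 fold change over the square root of F. Alternatives used DESeq2 1.42.0 and limma 3.58.1, the latter also on log2(RPKM + 1) and log2(RPKM + 0.1), a scale that understates changes of low genes. The library set is the side of the first principal component of log2 CPM (prior count 2). The offset removes each library's trend (natural splines, 5 degrees of freedom) with length and GC of the longest GENCODE 29 transcript. Named partner genes were ABCF1, EIF5, EIF5B and CDC123 and the 4 others with the smallest p. The main test was also run on simulated counts, which held neither the library set nor the length and GC trend. The check required only that the median simulated folds be recovered, so it does not show the error rate in these data. Libraries of a group differed by 11.4 or more in chi-square per degree of freedom, which is more than counting noise alone gives. This value does not tell separate cultures from separate preparations of the same culture. With 3 libraries per group, the precision is set by their spread rather than by depth.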

Additional observations from a re-analysis of the deposited data

How the results depend on the processing

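Directions of EIF2S2, EIF2S3, EIF2B2, EIF2B3, EIF2B4 and EIF2B5 were the same in all alternatives run, with log2 fold changes of -0.36 to -0.10, -0.26 to -0.05, 0.19 to 0.38, 0.07 to 0.37, 0.08 to 0.28 and 0.07 to 0.21. The DESeq2 Wald test called 626 genes, 0 of 8 members and 7 partner genes, the library set as a covariate 4193, 4 and 14, the set with the length and GC offset 1110, 2 and 6, and the 4 libraries without the set apart 1803, 1 and 10. An offset fitted on genes of 10 CPM or more, added after seeing the data, gave 858, 3 and 5; in it EIF2S1 was at 0.16, EIF2S2 at -0.19 (edgeR adjusted p = 0.045) and EIF2B2 at 0.36 (edgeR adjusted p = 0.013). The set as a covariate called EIF2S2 (-0.22), EIF2S3 (-0.16), EIF2B2 (0.28) and EIF2B5 (0.17), the set with the offset EIF2S1 (0.16) and EIF2B2 (0.37), and the 4 libraries EIF2S2 (-0.25). EIF2S1 was also 0.16 with the offset alone and with the replicate block and offset, and EIF5B was 0.12 and 0.10 there, 0.10 with the set and offset and 0.10 with the added offset. EIF2B1 was -0.08 with library size only, -0.07 on log2(RPKM + 1) and -0.08 on log2(RPKM + 0.1), scales on which the median of all genes moved to -0.10, -0.05 and -0.08. Leaving out 1 library gave -0.14 to 0.02 for EIF2S1, -0.04 to 0.09 for EIF2B1 and -0.37 to 0.02 for EIF5B. The mean log2 fold change of eIF2B less that of eIF2, a comparison chosen after seeing the data, was 0.21 in the 3 other fits with an offset and 0.19 with the offset on genes of 10 CPM or more, and 0.30 to 0.35 in all others. Same-numbered libraries of the groups had deviations correlated at 0.11, -0.11 and -0.15. These values give no sign of pairing by number, but cannot tell whether same-numbered libraries were prepared together. With the replicate block edgeR called 0 genes and 0 of 8 members, and 1194 genes had an unadjusted p under 0.05 in place of 2450. The cause of these changes was not tested.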
